A study of Mus musculus with 10 samples.

Results

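The genes of the proteasome were measured by RNA sequencing in 10 murine pancreatic tumors, and 48 genes made up the group. They are the protein-coding genes whose mouse symbol is Psma, Psmb, Psmc, Psmd, Psme, Psmf or Psmg followed by a number and whose mean was at least 1 over the tumors. The table held 55359 genes, of which 24560 reached that mean. The rule uses names and an overall level only, although the members were chosen with earlier results of these data known. Psme2b, Psmc3ip and the pseudogenes of Psmb5, Psmb6 and Psmb7 have similar names and were not members.

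All tumors grew from K8484 cells, a single KPC line that carries a point-mutant Trp53 allele and Pdx1-Cre, placed in the pancreas of immunocompetent C57BL/6 mice at 10 weeks of age. The 5 control mice (CTRL) drank regular water and were normoglycemic. The 5 hyperglycemic mice drank water with 30% dextrose (D30) for 14 days, and no chemotherapy is named for any tumor. Sample titles call the tumors PDX, although their source is given as KPC cells. Tumors are called N1, N2, N4, N5 and N6 in the CTRL group and T1, T2, T4, T5 and T7 in the D30 group. Values are normalized counts, the reads of a gene after division by the size factor of its library, from 29915331 to 42122304 recovered reads in the CTRL group and from 29192261 to 37126175 in D30 tumors.

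The proteasome is the protease that degrades proteins tagged with ubiquitin. Its 20S core is a barrel of 2 outer alpha rings and 2 inner beta rings, and 3 of the beta subunits cut peptides. A 19S cap recognizes, unfolds and feeds in the substrate, with a base that holds ATPases and a lid that removes ubiquitin. Cells exposed to interferon-gamma build an immunoproteasome, in which Psmb8, Psmb9 and Psmb10 take the places of Psmb5, Psmb6 and Psmb7 and change the peptides that reach class I molecules.

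Positions are those of GRCm38. The immunoproteasome genes Psmb8 (chr17:34197721-34201454) and Psmb9 (chr17:34181987-34187764) are neighbors in the class II region of the major histocompatibility complex, and Psmb10 lies at chr8:105935735-105938444. The constitutive genes lie at chr14:54614119-54618022 (Psmb5), chr11:70525367-70527858 (Psmb6) and chr2:38588036-38644087 (Psmb7). Promoters of Psmb5, Psmb6, Psmb8 and Psmb9 are shown because the comparison of immunoproteasome with constitutive subunits turns on them. Each runs 5′ to 3′ over 250 bases before and 50 bases after the RefSeq start (GRCm38.p6), and capitals mark exact matches to the motifs described next. Psmb5 is at chr14:54617946-54618245 on the minus strand, Psmb6 at chr11:70525107-70525406 on the plus strand, Psmb8 at chr17:34197945-34198244 on the plus strand and Psmb9 at chr17:34187281-34187580 on the minus strand.
Psmb5: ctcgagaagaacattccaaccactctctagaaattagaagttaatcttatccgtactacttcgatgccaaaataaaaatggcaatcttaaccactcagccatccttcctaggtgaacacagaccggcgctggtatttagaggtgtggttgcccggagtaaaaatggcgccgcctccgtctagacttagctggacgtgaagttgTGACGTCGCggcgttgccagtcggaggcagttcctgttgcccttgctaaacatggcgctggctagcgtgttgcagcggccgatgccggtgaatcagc
Psmb6: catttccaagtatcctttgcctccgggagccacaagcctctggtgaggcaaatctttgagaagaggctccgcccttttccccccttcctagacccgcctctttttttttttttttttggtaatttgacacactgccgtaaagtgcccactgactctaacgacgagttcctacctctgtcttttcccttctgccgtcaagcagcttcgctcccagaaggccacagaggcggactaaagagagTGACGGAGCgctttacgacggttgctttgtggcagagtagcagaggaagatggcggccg
Psmb8: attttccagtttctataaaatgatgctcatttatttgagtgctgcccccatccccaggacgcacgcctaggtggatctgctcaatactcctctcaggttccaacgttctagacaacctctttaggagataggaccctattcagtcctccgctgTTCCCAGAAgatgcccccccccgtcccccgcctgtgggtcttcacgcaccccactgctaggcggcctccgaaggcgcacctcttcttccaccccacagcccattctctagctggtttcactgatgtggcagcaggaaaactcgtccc
Psmb9: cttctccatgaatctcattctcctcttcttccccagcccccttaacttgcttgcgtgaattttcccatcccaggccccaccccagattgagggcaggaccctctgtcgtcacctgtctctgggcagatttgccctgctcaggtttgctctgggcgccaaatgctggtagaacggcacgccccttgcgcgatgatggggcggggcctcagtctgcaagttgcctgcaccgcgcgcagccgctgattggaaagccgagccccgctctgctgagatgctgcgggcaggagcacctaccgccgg

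Motifs were searched on both strands, with overlapping matches kept, in the 40 members that had a promoter in the RefSeq table. These members had 43 promoters, and a member counted once if any of its promoters matched. Shares over all promoters count single promoters. The antioxidant response element core, TGACNNNGC, is read by NRF1 and NRF2 and was present in 6 members (15.0%) and in 12.4% of all 32851 promoters. Psmb5 and Psmb6 held it, together with Psmc6, Psmd9, Psmd12 and Psme4. The interferon-stimulated response element, searched as GAAA, any 2 bases and GAAA, was present in Psmb3, Psmd4, Psmd9, Psme1 and Psmg4 (12.5%) and in 3.44% of all promoters. The gamma-activated site, searched as TTCNNNGAA, was present in Psmb8, Psmd2 and Psmg1 (7.5%) and in 8.3% of all promoters. None of these letters occurred in the Psmb9 window. The Psmb8 and Psmb9 windows lie wholly inside the gene positions given above, so the bases upstream of these 2 genes were not searched.

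No proteasome gene differed between D30 and CTRL tumors at an adjusted p under 0.05. The test was limma on log2(normalized count + 1) over all 24560 genes with Benjamini-Hochberg adjustment, and it called 678 genes (2.76%) elsewhere in the transcriptome. The smallest adjusted p among the members was 0.220, for Psme4. At an unadjusted p under 0.05, 3 of 48 members passed (6.25%), beside 17.3% of all genes. Run on the recovered reads, edgeR called 0 members and 2.61% of all genes, and DESeq2 called 0 members and 7.97% of all genes, while at an unadjusted 0.05 each passed 5 members (10.4%), beside 17.9% of all genes by edgeR and 19.3% by DESeq2. In no member did the 5 CTRL and 5 D30 tumors fail to overlap, beside 6.19% of all genes.

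Estimates of the members lay between -1.30 (Psmb11) and 0.68 (Psma6) on the log2 scale. Of 48, 35 were higher and 13 lower in D30 tumors, and their median log2 fold change was 0.12, beside -0.06 over all genes tested, of which 45.3% were higher. The balance of directions turned when 1 tumor was left out. Without T4 the median was -0.06, beside -0.05 over all genes, with 20 members higher and 28 lower. At an unadjusted p under 0.05, 4 members then passed (8.33%), beside 22.5% of all genes, and again 0 members were called, beside 6.43% of all genes. Scaling by library size alone gave the members a median of -0.10, beside -0.27 over all genes. Among the 46 members with a mean of at least 100, the 95% confidence interval lay within 1 log2 unit of 0 for 35 members with all tumors and for 45 without T4.

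**Figure D1:**
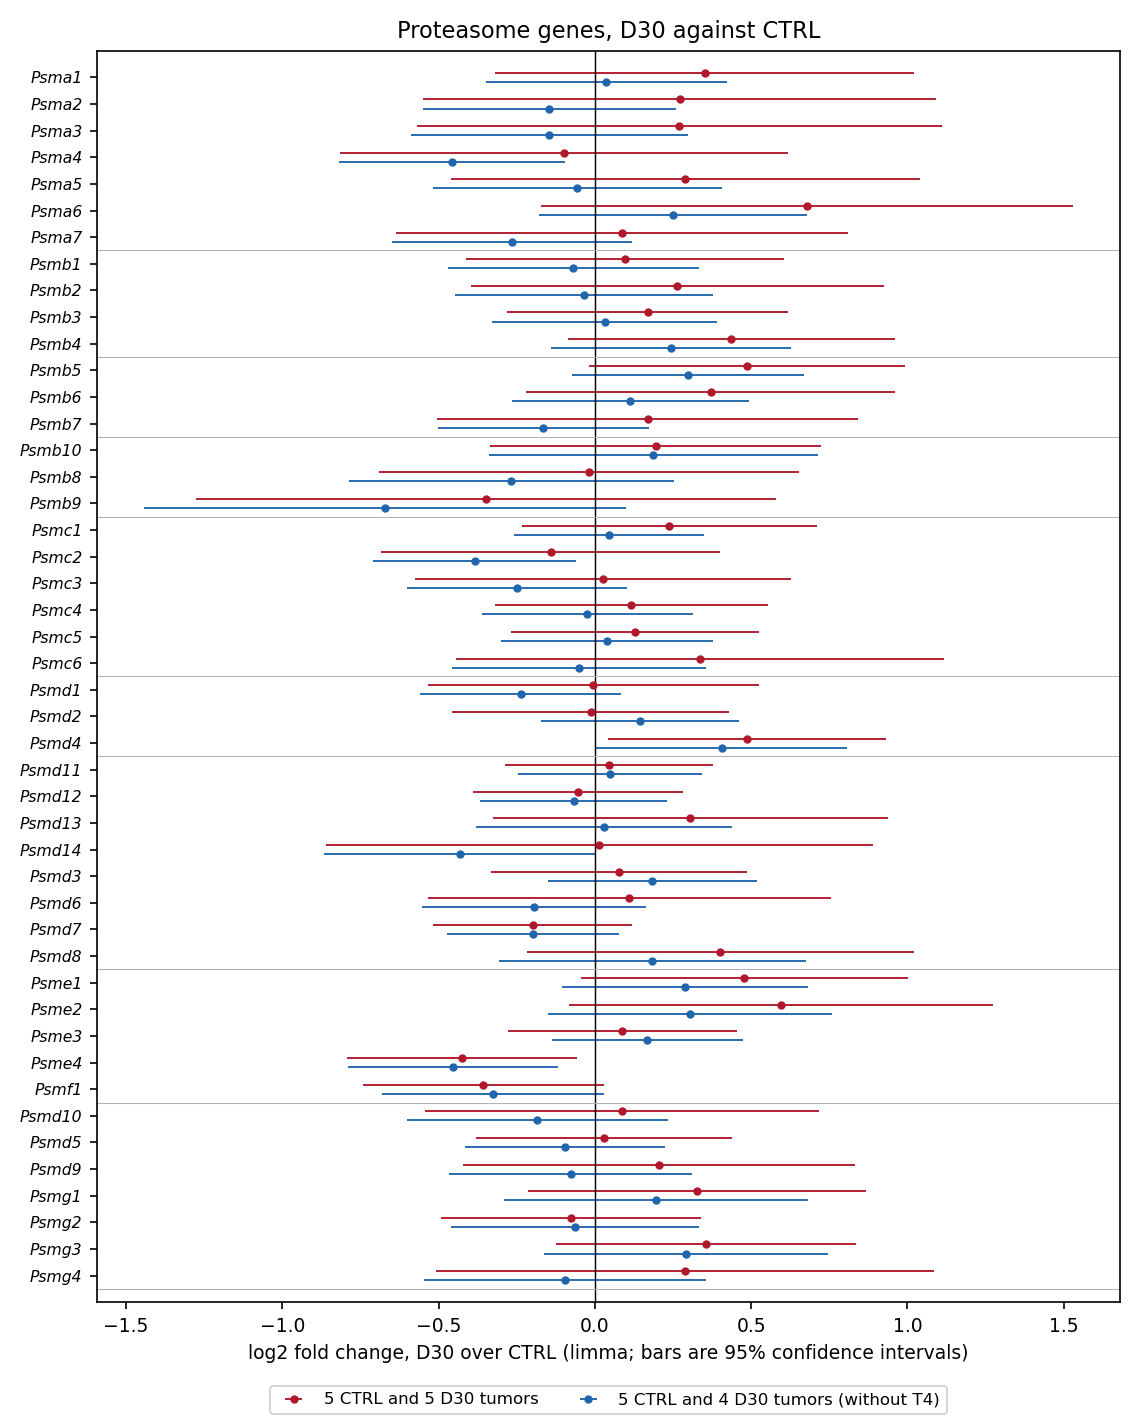
Log2 fold change of D30 over CTRL (x axis) for the 46 members with a mean of at least 100, grouped by role, with 95% confidence intervals from limma; red points use all 10 tumors and blue points leave out T4. Of the blue points, 39 lie to the left of the red ones, and in the red fit only the intervals of Psmd4 and Psme4 miss 0.

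T4 was the highest of the 10 tumors for 34 of 48 members (70.8%), beside 24.3% of all genes. Among members with a mean of at least 100, 24 of 46 were more than 2 times the mean of the other D30 tumors in T4 and 8 were below it. On the log2 scale, the median deviation of these members from the 10-tumor mean was 0.99 in T4 and 0.23 in N1, the CTRL tumor with the next highest value. It lay between -0.36 in N5 and 0.00 in T7 for the other 8 tumors, while the median over all 12215 genes with such a mean stayed between -0.02 and 0.04 in every tumor. Estimates of single genes that move by over 1.5 times without T4 are therefore given both ways.

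**Figure D2:**
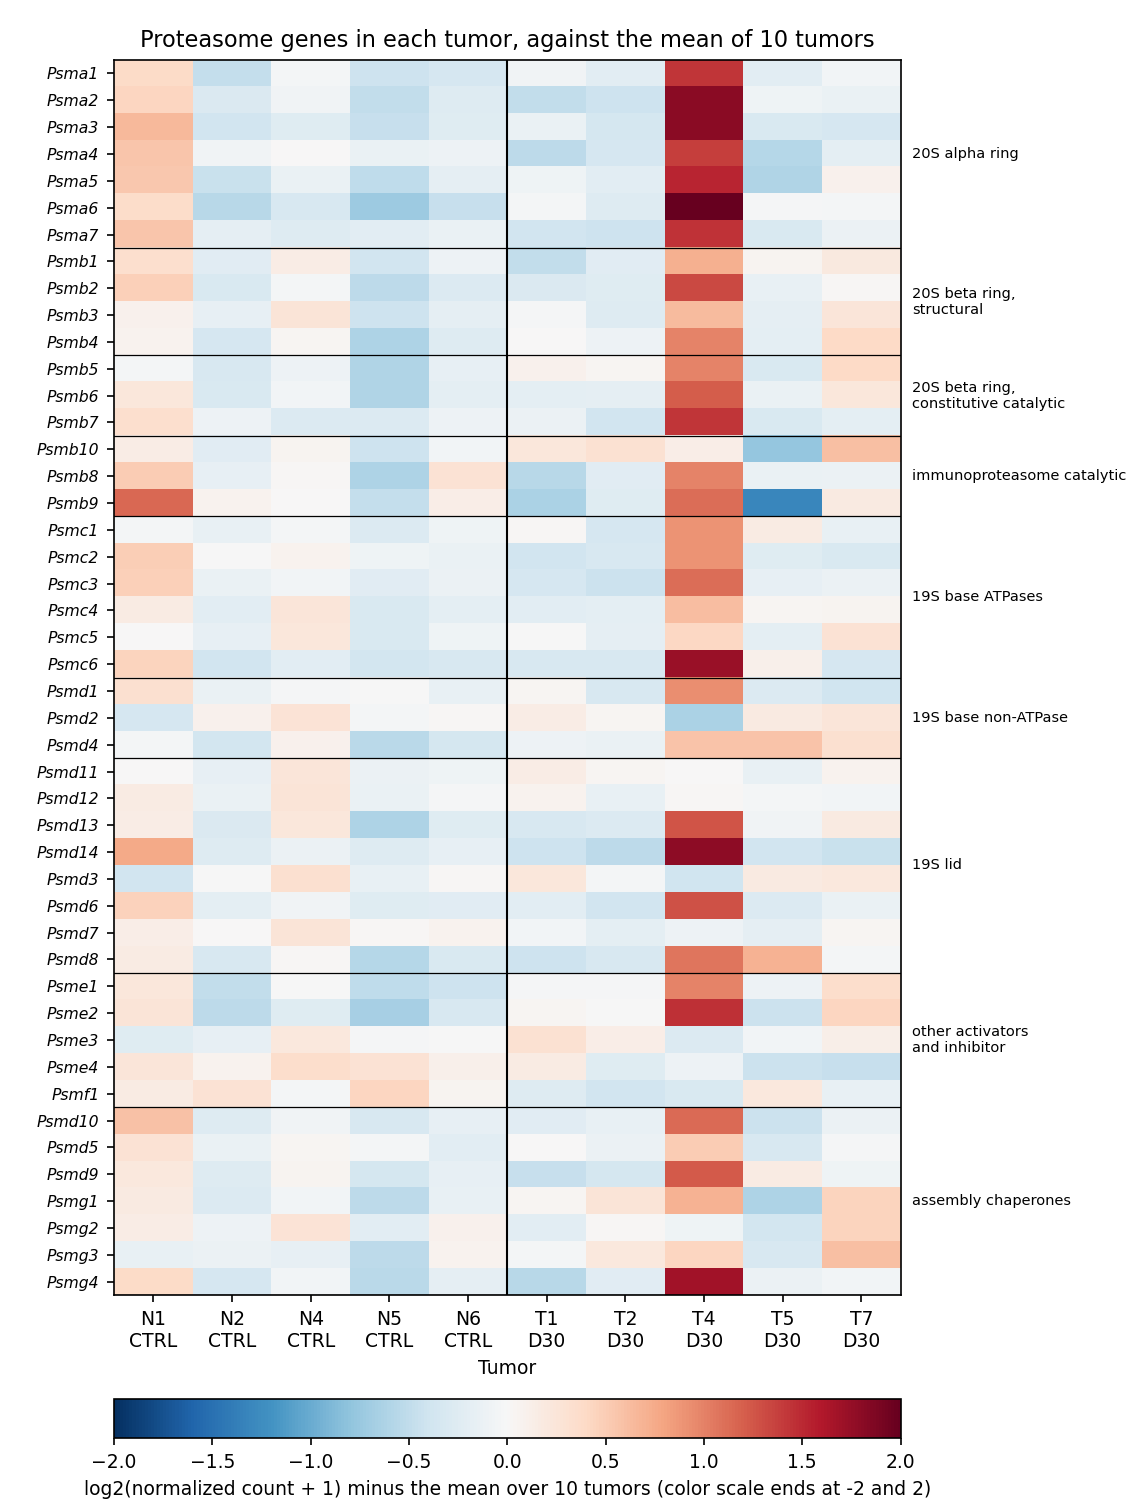
Heat map of log2(normalized count + 1) minus the mean over 10 tumors for 46 members (rows, grouped by role) in each tumor (columns); the color scale ends at -2 and 2. The T4 column is red in most rows, with Psmd2, Psmd3, Psme3 and Psmf1 among the blue ones.

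The higher values in T4 were uneven across the parts of the complex. The alpha ring stood highest, with a median deviation of 1.53, followed by the constitutive catalytic subunits at 1.21, the immunoproteasome subunits at 0.99, the base ATPases at 0.90 and the structural beta subunits at 0.85. Assembly chaperones had 0.69, base non-ATPases 0.57 and lid subunits 0.55, and the activators and inhibitor had -0.10. In the 19S cap, Psmd14, the lid deubiquitinase, had a count of 10450 in T4 and 2117 to 2335 in the other D30 tumors. Psmd2, a scaffold of the base, had its lowest count in T4, 6091, beside 9711 to 11247 in the other D30 tumors. Psmd3, a structural lid subunit, was lowest in T4 as well, at 4544.

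Transcript length and GC content moved with the T4 values across the transcriptome. Over 11575 protein-coding genes with a mean of at least 100, the difference of T4 from the other D30 tumors had a Spearman correlation of -0.37 with transcript length and -0.47 with GC content, and the difference of N1 from the other CTRL tumors had -0.35 and -0.53. For the other 8 tumors these correlations, taken in the same way, lay between -0.09 and 0.46 with length and between 0.12 and 0.49 with GC content. T4 or N1 is part of the reference of each of these tumors, so an opposite sign there is partly built into the measure. All points of such a correlation share the same library. Members have short transcripts, with a median of 1490 nt beside 3026 nt for those genes, and a GC content of 50.2% beside 50.4%. Among transcripts up to 1500 nt, T4 exceeded the other D30 tumors by a median of 1.32 log2 units for 24 members and 0.83 for 1746 genes. From there to 3000 nt the medians were 1.15 for 18 members and 0.09 for 3975 genes, and above that length 0.38 for 4 members and -0.43 for 5854 genes. After a correction of each tumor for GC content and length, the median deviation of the members in T4 was 0.62, and 0 members were called beside 4.97% of genes.

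**Figure D3:**
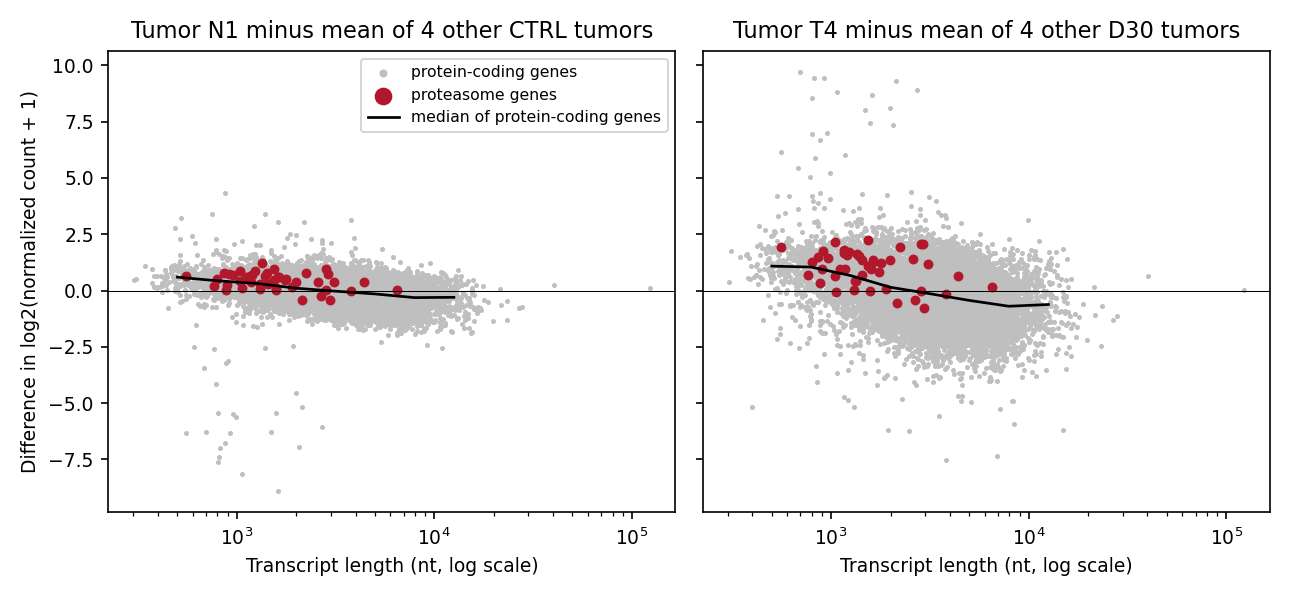
Difference in log2(normalized count + 1) between N1 (left) or T4 (right) and the mean of the other tumors of its group, against transcript length on a log scale, for protein-coding genes (gray), members (red) and the median of protein-coding genes by length (line). In T4 the line falls from short to long transcripts and most red points sit above it.

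The alpha ring forms the gate of the core, and its genes were among the most abundant. Psma7 was the highest member of the complex per kilobase of transcript, at 13395 normalized counts per kilobase over all tumors. Psma8, an alternative subunit of the germ line, was the lowest alpha subunit, at 4.46 per kilobase, with counts of 1.71 to 10.96 in the CTRL group and 1.07 to 28.9 in D30 tumors. Estimates were positive for 6 of the 8 alpha genes and negative for 2, and their median of 0.27 on the log2 scale became -0.15 without T4.

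Psma6 had the largest estimate among abundant members. Its counts were 4927 in N1, 2586 in N2, 3046 in N4, 2318 in N5 and 2784 in N6, against 3713 in T1, 3181 in T2, 15929 in T4, 3775 in T5 and 3712 in T7. Every D30 tumor exceeded all CTRL tumors but N1, so the groups overlapped by that tumor alone. The log2 fold change was 0.68 ± 0.39 (SE, adjusted p = 0.407, limma), and 0.25 without T4. After the correction for GC content and length it was 0.65 (adjusted p = 0.134, limma), and 0.41 without T4 (adjusted p = 0.0923, limma). Psma1, which had the next smallest p of the alpha genes after Psma6, had a log2 fold change of 0.35 ± 0.31 (SE, adjusted p = 0.611, limma) and 0.04 without T4.

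The structural beta subunits Psmb1 to Psmb4 close the inner rings without cutting. All 4 had positive estimates, from 0.10 to 0.44 on the log2 scale and from -0.07 to 0.24 without T4, none of which passed the test. Their mean levels per kilobase spanned only 1.54-fold, from 3538 for Psmb2 to 5443 for Psmb1. Psmb4 had counts of 3929 to 6360 in the CTRL group and 5283 to 11978 in D30 tumors, and a log2 fold change of 0.44 ± 0.24 (SE, adjusted p = 0.383, limma), which was 0.24 without T4. For Psmb2 the estimate was 0.26, and -0.03 without T4.

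The constitutive catalytic subunits provide the chymotrypsin-like (Psmb5), caspase-like (Psmb6) and trypsin-like (Psmb7) activities. Psmb5 counts were 3176 in N1, 2597 in N2, 3028 in N4, 2148 in N5 and 2914 in N6, and 3445 in T1, 3347 in T2, 6480 in T4, 2625 in T5 and 4309 in T7. Of the D30 tumors, 4 exceeded the highest CTRL tumor and T5 lay within the CTRL range. The log2 fold change was 0.49 ± 0.23 (SE, adjusted p = 0.307, limma), and 0.30 without T4.

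Psmb6 ranged from 2297 to 4076 in CTRL tumors, with a median of 3054, and was 3054 in T1, 3065 in T2, 8071 in T4, 3179 in T5 and 4062 in T7. Outside T4 these values fell inside the CTRL range. Psmb7 ranged from 1839 to 2812 in the CTRL group and was 1710 to 2045 in the D30 tumors other than T4, which had 5980. Its log2 fold change was 0.17 with T4 and -0.17 without it. Exons of Psmb7 overlap Nek6 on the opposite strand over 405 bases, and those of Psmb5 hold Mir686 on the same strand, and the counting settings are not given in the sources used here.

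Of the immunoproteasome genes, Psmb8 and Psmb9 stood well below their constitutive partners, while Psmb10 reached 20.5% to 87.4% of Psmb7 per kilobase. Psmb9 was the lowest, with counts of 425 in N1, 202 in N2, 192 in N4, 137 in N5 and 210.5 in N6, and of 123 in T1, 163 in T2, 419 in T4, 76.7 in T5 and 218 in T7. N1 and T4 had nearly the same level, and T5 and T1 were below every CTRL tumor. Its log2 fold change was -0.35 ± 0.43 (SE, adjusted p = 0.729, limma), and -0.67 without T4 (95% confidence interval -1.44 to 0.10).

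Psmb8 counts were 443 in N1, 280 in N2, 319 in N4, 203 in N5 and 382 in N6, and 213 in T1, 266 in T2, 621 in T4, 286 in T5 and 287 in T7. The groups overlapped fully outside T4, and the log2 fold change was -0.02 ± 0.31 (SE, adjusted p = 0.985, limma), and -0.27 without T4. Psmb10 was the most abundant of the immunoproteasome genes, at 1001 normalized counts per kilobase beside 203 for Psmb8 and 160 for Psmb9. It ranged from 953 to 1405 in the CTRL group and was 1494 in T1, 1569 in T2, 1388 in T4, 744 in T5 and 1925 in T7, so T4 was not raised for this gene. Psmb8 shares 498 exon bases with Gm20496 and Psmb9 shares 212 with Tap1, in both cases on the opposite strand.

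**Figure D4:**
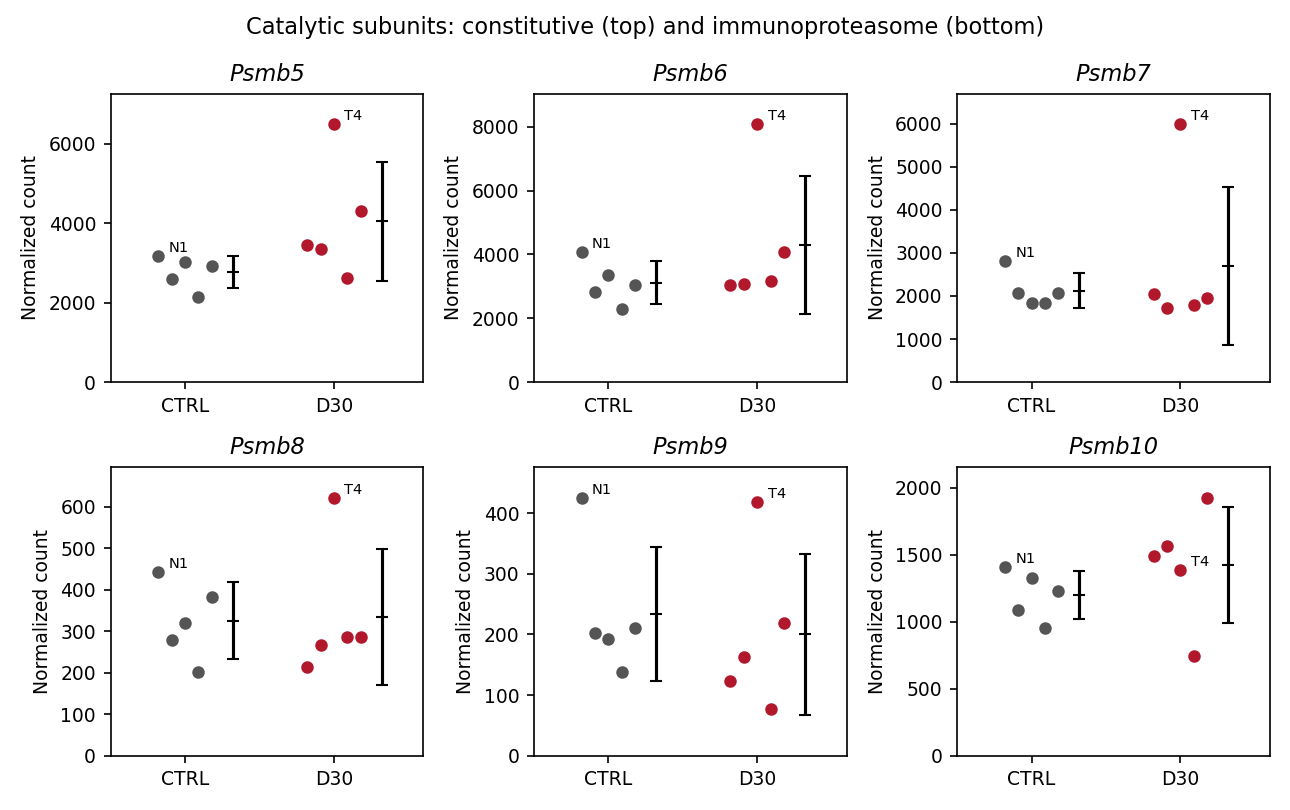
Normalized counts of the constitutive (top) and immunoproteasome (bottom) catalytic subunits in 5 CTRL and 5 D30 tumors, one point per tumor, with the mean and SD of each group beside the points. T4 is the highest tumor for Psmb5, Psmb6, Psmb7 and Psmb8, N1 for Psmb9 and T7 for Psmb10.

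Ratios within a tumor set each immunoproteasome gene against the subunit it replaces, and each was tested by a two-sided exact permutation test over the tumors, with adjustment over the 3 ratios. Psmb9 was lower relative to Psmb6 in D30 tumors. The log2 ratio of counts was -3.26 in N1, -3.80 in N2, -4.13 in N4, -4.07 in N5 and -3.86 in N6. It was -4.63 in T1, -4.24 in T2, -4.27 in T4, -5.37 in T5 and -4.22 in T7. All 5 D30 tumors lay below all 5 CTRL tumors, with T7 and N4 closest.

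The means were -3.82 ± 0.34 in the CTRL group and -4.54 ± 0.49 in D30 tumors (SD, n = 5 each), a difference of -0.72, or 39.3% lower (exact permutation p = 0.00794, the smallest that 5 against 5 tumors can give; adjusted p = 0.0238). Per kilobase, Psmb9 amounted to 3.36% to 6.16% of Psmb6 in the CTRL group and to 1.42% to 3.17% in D30 tumors. With any single tumor left out the difference lay between -0.80 and -0.51. The exact permutation p was then 0.0159, the smallest that 5 against 4 tumors can give, which the full separation fixes. Adjusted over the 3 ratios it was 0.0476. After the correction for GC content and length the difference was -0.67 (exact permutation p = 0.0159, adjusted p = 0.0476). This exact p is above the 0.00794 that full separation gives, so the corrected ratios of the 2 groups overlapped. Without both N1 and T4 the uncorrected difference was -0.65 (exact permutation p = 0.0286, the smallest that 4 against 4 tumors can give, adjusted p = 0.0857). Neither gene passed the test alone. Psmb6 had a log2 fold change of 0.37 ± 0.27 (SE, adjusted p = 0.526, limma), and 0.11 without T4, beside -0.35 for Psmb9, and -0.67 without T4. The ratio alone does not tell a lower Psmb9 from a higher Psmb6.

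Psmb8 relative to Psmb5 had a log2 ratio of -2.84 in N1, -3.21 in N2, -3.25 in N4, -3.41 in N5 and -2.93 in N6, and of -4.02 in T1, -3.65 in T2, -3.38 in T4, -3.20 in T5 and -3.91 in T7. T4 and T5 fell within the CTRL range and the other D30 tumors below it. The difference of -0.50 did not pass (exact permutation p = 0.0556, adjusted p = 0.0833). Of the 10 tumors left out in turn, T5 alone brought it past the threshold, at -0.61 (exact permutation p = 0.0317, adjusted p = 0.0476), and the adjusted p was 0.0714 to 0.167 for the others.

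Psmb10 relative to Psmb7 showed no common direction. Its log2 ratio was -1.001 in N1, -0.92 in N2, -0.47 in N4, -0.95 in N5 and -0.76 in N6, against -0.45 in T1, -0.12 in T2, -2.11 in T4, -1.28 in T5 and -0.02 in T7. The ratio was higher than in any CTRL tumor in 3 D30 tumors and lower than in any in T4 and T5. The difference was 0.02 (exact permutation p = 0.960, adjusted p = 0.960), and without T4 it was 0.35 (exact permutation p = 0.238, adjusted p = 0.238).

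**Figure D5:**
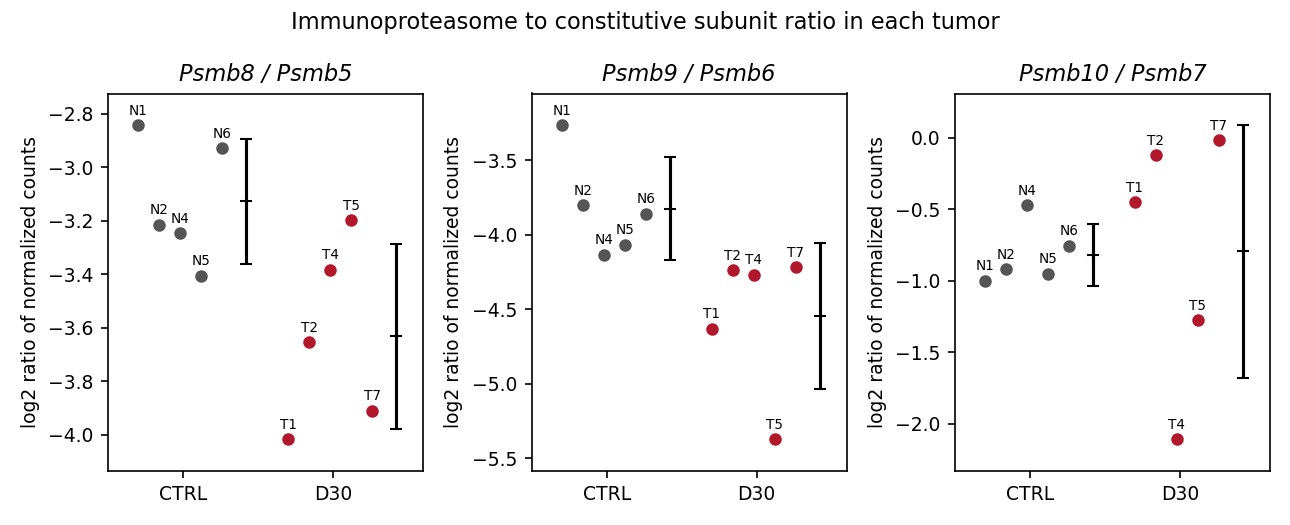
Log2 ratio of normalized counts of each immunoproteasome subunit to the constitutive subunit it replaces, one point per tumor, with the mean and SD of each group. The groups separate for Psmb9 over Psmb6, overlap for Psmb8 over Psmb5, and spread widely in D30 tumors for Psmb10 over Psmb7.

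Markers of other cell types moved between the groups as well. In bulk tumors, fewer cells of a type and less RNA per cell cannot be told apart. The summed counts of 7 T and NK cell markers, of which 6 were tested and all 6 had negative estimates, ranged from 195 to 445 in the CTRL group and from 59.5 to 204 in D30 tumors, with Nkg7 and Gzmb at 0 in T5. Those of 3 endothelial markers ranged from 9013 to 16213 and from 3594 to 7439, with Cdh5 called lower (adjusted p = 0.0117, limma), and those of 6 tumor epithelium markers from 209890 to 335472 and from 341271 to 475520. All 5 fibroblast markers had negative estimates, with sums of 47574 to 87154 in the CTRL group and 11025 to 72377 in D30 tumors. Myeloid sums ranged from 14763 to 36145 in the CTRL group and from 6777 to 13455 in the D30 tumors other than T4, which had 51003. Lyz2 made up 46217 of the T4 sum and 30899 of the 36145 in N1. Of the 6 myeloid markers, 3 had positive estimates (Itgam, Itgax and Cd68) and 3 negative (Adgre1, Csf1r and Lyz2). Csf1r was lowest of all tumors in T4, at 693, and was called lower in D30 tumors (log2 fold change -1.06, adjusted p = 0.0449, limma). Islet markers had sums of 5.31 to 1272 in the CTRL group and 0 to 15.0 in D30 tumors, and Ins1 and Gcg were called lower (adjusted p = 0.0355 and 0.0170, limma). The medians of 3 B cell and 5 acinar markers were -1.52 and -4.84 on the log2 scale and that of 3 neutrophil markers 1.72. These lists had 0 calls with all tumors, beside 2.76% of all genes. Cpa1, Cpb1, Ins2, Gzmb and Lyz2 were called lower when T4 was left out (adjusted p = 0.0403, 0.0417, 0.0136, 0.0302 and 0.0285, limma), beside 6.43% of all genes called. Krt8, Krt18, Krt19 and Cdh1 were abundant in every tumor. Of the 6 epithelium markers, 5 had positive estimates and Epcam went the other way. The log2 fold change of Epcam was -3.17 (adjusted p = 0.0990, limma), and -3.96 without T4 (adjusted p = 0.00902, limma), and it was at 0 in T2. Krt18 and Krt7 were called higher without T4 (adjusted p = 0.0415 and 0.0363, limma). The part of these cell types in the Psmb9 to Psmb6 ratio was not tested.

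Interferon-gamma response and class I presentation genes gave 0 calls among 19 tested, beside 2.76% of all genes, with a median log2 fold change of 0.07 that was -0.08 without T4. Tap1, the peptide transporter subunit next to Psmb9, had 248 to 406 counts in the CTRL group and 250 to 333 in D30 tumors. Nlrc5, the class I transactivator, had a log2 fold change of -0.51 ± 0.23 (SE, adjusted p = 0.279, limma), with 183 to 243 counts in the CTRL group and 108 to 177 in D30 tumors, which did not overlap. Irf1, an interferon-induced transcription factor, had 0.47 ± 0.19 (SE, adjusted p = 0.218, limma). Ifng itself was at 0 to 1.83 in all tumors except T4, where it had 17.3.

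Thymoproteasome subunit Psmb11, found in thymic epithelium, was close to the detection limit, with 1.83 to 7.36 counts in the CTRL group and 0 to 3.08 in D30 tumors. T2 and T4 had none. Its log2 fold change was -1.30 ± 0.56 (SE, adjusted p = 0.251, limma).

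The 6 ATPases of the 19S base, which unfold substrates, had levels within 1.502-fold of each other per kilobase, from 1895 for Psmc6 to 2847 for Psmc3. Of these, 5 had positive estimates with all tumors and 2 without T4. Psmc6 reached 12316 in T4 and 2967 to 4018 in the other D30 tumors, beside 2853 to 5097 in CTRL tumors. For Psmc6 the estimate was 0.34, and -0.05 without T4. Psmc1 had a log2 fold change of 0.24 ± 0.22 (SE, adjusted p = 0.626, limma), and 0.04 without T4.

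Psmd4, the ubiquitin receptor of the base, was one of 3 members past an unadjusted p of 0.05. Its counts were 4839 in N1, 3872 in N2, 5288 in N4, 3422 in N5 and 3930 in N6, and 4647 in T1, 4529 in T2, 7408 in T4, 7451 in T5 and 6200 in T7. T4, T5 and T7 exceeded every CTRL tumor, and T1 and T2 lay inside the CTRL range. The log2 fold change was 0.49 ± 0.21 (SE, adjusted p = 0.245, limma), and 0.41 without T4. Psmd1, a scaffold of the base, was the lowest of the 3 base non-ATPases per kilobase at 1634, and Psmd4 the highest at 3873. Psmd2 had a log2 fold change of -0.01, and 0.14 without T4.

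Over the 8 lid genes the median estimate was 0.06 on the log2 scale, and -0.02 without T4. Psmd8, the most abundant lid gene per kilobase at 3729, had 3616 to 6039 counts in the CTRL group and 11324 in T4 and 8732 in T5, beside 4033 to 5257 in the remaining D30 tumors. Its estimate was 0.40 ± 0.29 (SE, adjusted p = 0.511, limma), and 0.18 without T4. Psmd7, the partner of the deubiquitinase Psmd14, had the smallest standard error of the 48. It had 4340 to 5198 counts in the CTRL group and 3763 to 4431 in D30 tumors, T4 included, with a log2 fold change of -0.20 ± 0.15 (SE, adjusted p = 0.527, limma). Psmd12 was the lowest lid gene, at 1265 per kilobase.

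Of the 5 activators and inhibitor outside the 19S cap, 0 were called, beside 2.76% of all genes. Psme4 encodes PA200, a nuclear activator, and had 3765 counts in N1, 3363 in N2, 4099 in N4, 3908 in N5 and 3433 in N6. It had 3593 in T1, 2687 in T2, 2981 in T4, 2380 in T5 and 2326 in T7. Only T1 reached the CTRL range. The log2 fold change was -0.43 ± 0.17 (SE, adjusted p = 0.220, limma), -0.45 without T4 (adjusted p = 0.103, limma) and -0.16 after the correction for GC content and length (adjusted p = 0.552, limma). Psme4 has the longest transcript of the members, at 6491 nt.

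Psmf1, an inhibitor of the core, was the lowest of these 5 genes per kilobase at 332 and had 1215 to 1674 counts in the CTRL group and 951 to 1433 in D30 tumors, with a log2 fold change of -0.36 ± 0.18 (SE, adjusted p = 0.327, limma). Psme1 and Psme2, the PA28 subunits induced by interferon-gamma, had positive estimates of 0.48 and 0.60, and 0.29 and 0.30 without T4, none of which passed. Psme1 was the most abundant of the 5 per kilobase at 3301. Counts of the near-identical Psme2b were 5.50% to 6.95% of those of Psme2 in every tumor, so reads may have been shared between them and both values are uncertain.

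Assembly chaperones help to build the alpha ring or the base and leave the finished particle. Their mean levels per kilobase ran from 469 for Psmd9 to 1214 for Psmg2. Of 7, 6 had positive estimates with all tumors and 2 without T4. Psmg3 had 321 to 482 counts in the CTRL group and 370 to 700 in D30 tumors, with a log2 fold change of 0.36 ± 0.22 (SE, adjusted p = 0.444, limma). Psmg1 had 0.33 ± 0.25 (SE, adjusted p = 0.543, limma), and 0.20 without T4. Gm26745 overlaps 25.5% of the exon bases of Psmd9 on the opposite strand.

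Genes that work with the proteasome but carry other names had 0 calls among 12 tested, beside 2.76% of all genes. Of the 12, 9 were higher and 3 lower, beside 45.3% of all genes higher. Zfand2a, a proteasome-binding protein of the stress response, had the smallest p. It had 1273 to 1781 counts in the CTRL group and 2137 in T1, 2549 in T2, 6558 in T4, 6052 in T5 and 1896 in T7, so the groups did not overlap, with a log2 fold change of 1.16 ± 0.34 (SE, adjusted p = 0.0908, limma). Sem1, the small lid subunit outside the Psm names, had 3094 to 3992 counts in the CTRL group and 4471 to 6027 in D30 tumors, again without overlap, and a log2 fold change of 0.47 ± 0.16 (SE, adjusted p = 0.149, limma).

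A list of 14 genes around NRF1, an activator of proteasome genes, held its partners and processing factors and also the related factor NRF2 (Nfe2l2), Keap1 and the large factor Maf. Of these, 2 were called, 1 in each direction, beside 2.76% of all genes. NRF1 (Nfe2l1) is drawn out of the endoplasmic reticulum, trimmed by Ngly1 and Ddi2, and binds its sites together with small MAF proteins. Mafk, one of these partners, had 1184 to 1540 counts in the CTRL group and 2464 in T1, 2859 in T2, 2853 in T4, 4648 in T5 and 2635 in T7. Its log2 fold change was 1.14 ± 0.20 (SE, adjusted p = 0.00863, limma). Maf, which is not one of the small MAF proteins, fell from 961 to 1376 counts in CTRL tumors to 508 in T1, 683 in T2, 599 in T4, 269 in T5 and 593 in T7, with a log2 fold change of -1.23 ± 0.25 (SE, adjusted p = 0.0208, limma). The groups were fully separated for both genes. The call of Maf was lost without N1, N2 or N6 (adjusted p = 0.0506, 0.0755 and 0.0674, limma), with estimates of -1.20 to -1.18, and that of Mafk was kept whichever tumor was left out. Nfe2l1 itself had a log2 fold change of 0.19 ± 0.31 (SE, adjusted p = 0.803, limma), and 0.50 without T4 (adjusted p = 0.121, limma).

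The polyubiquitin gene Ubb had a log2 fold change of 0.40 ± 0.22 (SE, adjusted p = 0.387, limma), and 0.24 without T4. Of 7 shuttle factors, which carry ubiquitinated proteins to the proteasome, 6 were tested and 0 called, beside 2.76% of all genes. Ubqln2 had 4333 to 9127 counts in the CTRL group and 1246 to 5342 in D30 tumors, with a log2 fold change of -0.99 ± 0.36 (SE, adjusted p = 0.176, limma), and -0.62 without T4 (adjusted p = 0.0987, limma). Sqstm1, an autophagy receptor, had 0.52 ± 0.22 (SE, adjusted p = 0.253, limma).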

How the data were processed

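Strand-specific libraries were prepared from tumor RNA and sequenced in pairs. Per the labels' processing notes, reads were trimmed with Trim Galore and aligned with STAR 2.7.0e to GRCm39, while the methods name hg38. The software listed by the authors includes RSEM, but annotation and counting settings are not given in the sources used here. The authors deposited a normalized signal per gene and tumor of the kind DESeq2 writes; 100.0% of values were whole reads (within 0.01) times 1 factor per tumor. Columns marked N were taken as CTRL and T as D30, the only other group. The column numbers are not those of the labels.

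Symbols, positions and transcript lengths came from GENCODE M21 (GRCm38), which named 52083 identifiers, and promoters from RefSeq. The design named limma 3.58.1 (R 4.3.3) with a trend on log2(value + 1) for genes with a mean of at least 1, and fold changes are on that scale. edgeR 4.0.16 and DESeq2 1.42.0 on recovered reads were alternatives. On simulated counts for this comparison over 23766 genes, limma recovered 10.3% of 2-fold and 91.4% of 4-fold changes. Confidence intervals cover the spread between these tumors, and p-values measure that spread only. Ratios were tested with scipy 1.17.1.

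Named members were the 6 catalytic subunits, called members, the 2 smallest p and the highest and lowest level per kilobase in each role. In the other lists they were called genes, or the 2 smallest p. Members and lists were chosen with earlier results of these data known. Genes given beyond the rule (Psmd14, Psmd3, Psme2, Tap1, Ifng, Nfe2l1, Ubb) were chosen after their values were seen. The result of 1 gene that the rule names outside the members is not reported here.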

Additional observations from a re-analysis of the deposited data

Results flagged for a closer look

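The 12 values below each lay apart from the other 4 tumors of their group (Dixon's gap over range above 0.71), out of 50 groups of 5 examined; chance marks about 1 in 20 groups. T4 accounted for 8 of them. Its normalized counts were 10844 for Psma1, 15929 for Psma6, 7056 for Psmb2, 8071 for Psmb6, 5980 for Psmb7, 621 for Psmb8 and 12316 for Psmc6, and the median deviation of the members in T4 was 0.99 on the log2 scale. N1 accounted for the other 4, with 4927 for Psma6, 2812 for Psmb7, 425 for Psmb9 and 5097 for Psmc6.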

How the results depend on the processing

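With 24 other settings, 0 members were called in every one. The members' median log2 fold change was positive except without T4 (-0.059), with library size alone as scaling (-0.10) and without both T4 and T5 (-0.059); leaving out each tumor gave -0.059 to 0.24. Library size alone moved the median of all genes to -0.27, and members stood 0.17 above it, beside 0.19 with the deposited scaling. It also changed the share of calls that were higher from 50.7% to 27.7%. Calls over all genes numbered 279 to 1573 with 1 tumor left out, 1957 by DESeq2, 1207 with the GC and length correction, 2151 with it and without T4, 1584 without N1 and T4, and 2418 without T4 and T5. Calls in the lists of related genes, 3 by limma with all tumors, numbered 1 to 3 with 1 tumor left out, 6 by DESeq2, 5 with the GC and length correction, 6 with it and without T4, 6 without N1 and T4, and 7 without T4 and T5. The corrections and joint omissions were chosen after seeing the data, and the cause of these changes was not tested.

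For the Psmb9 to Psmb6 ratio the difference was -0.80 to -0.51 with 1 tumor left out, and -0.65 without N1 and T4 missed the threshold (adjusted p = 0.0857), where 4 against 4 tumors limit the p. The Psmb8 to Psmb5 difference was -0.61 to -0.41 with 1 tumor left out and -0.73 without T4 and T5. For Psmb10 to Psmb7 it was -0.17 to 0.35 with 1 tumor left out, -0.076 with the GC and length correction and 0.62 without T4 and T5. T4 and T5 are the D30 tumors that overlapped or lay opposite in these ratios, so leaving out both fixes the separation and no test is given. Of 502 log2 fold changes of 21 named members under other settings, 468 kept their direction and 0 passed the threshold. Those that turned were Psmb10 (-0.029, library size alone), Psmb2 (-0.040 without T4 and T5, -0.034 to 0.42 with 1 tumor left out), Psmc1 (-0.036 without T4 and T5), Psmc6 (-0.16 without T4 and T5, -0.050 to 0.49 with 1 tumor left out), Psmd8 (-0.055 without T4 and T5), Psmb7 (-0.15 without T4 and T5, -0.060 without N1 and T4, -0.054 with library size alone, -0.17 to 0.29 with 1 tumor left out), and Psmb2, Psmb6 and Psmb7 with the correction and without T4 (-0.0065, -0.036 and -0.051). Psmb8 was 0.040 by DESeq2 and by edgeR with its factors, 0.025 by edgeR, 0.028 by upper quartile scaling, and -0.27 to 0.12 with 1 tumor left out. Psmd2 was 0.0058 by DESeq2 and by edgeR with its factors, 0.032 by upper quartile scaling, 0.083 with the correction, 0.18 with it and without T4, 0.061 without N1 and T4, 0.13 without T4 and T5, and -0.097 to 0.14 with 1 tumor left out. No paired analysis was possible because the numbers of the columns are not those of the labels' replicates.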
